A study of Mus musculus with 4 samples.

Results

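The 10 genes described here encode ligands, receptors and inhibitors of the TGF-beta and activin pathway, and were followed in regenerating mouse liver with and without hepatocyte Mcu. They were chosen by name (Tgfb1, Tgfb2, Tgfb3, Tgfbr1, Tgfbr2, Smad6, Smad7, Inhba, Inhbe and Fst), each through a probe set that carries that 1 symbol. All 10 had exactly 1 such probe set, among 19505 genes with a named probe set. Mcu encodes the pore of the mitochondrial calcium uniporter.

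Liver RNA of male C57BL6J mice was hybridised to 4 whole-transcript arrays, 1 for each of 4 groups. The groups were knockdown liver 30 h after partial hepatectomy, knockdown liver at 0 h, control liver at 30 h and control liver at 0 h. Per the labels' protocols, all mice came from litters with floxed Mcu alleles and were 10 to 12 weeks old when injected with an adeno-associated virus, AAV8-TBG-Cre for the knockdown and AAV8-TBG-Null for the controls. The TBG promoter acts in hepatocytes, so the other liver cells were not the target of the Cre. Surgery 5 weeks later removed 70% of the liver. The control arrays carry the genotype Wild type, whereas the protocol calls the controls littermates. For the knockdown arrays the genotype label differs from the protocol in the floxed gene it gives and is not reported here. The sample descriptions mention ethanol feeding, which no other label does. For the knockdown 30 h array the description also gives a time of 1 h after surgery, whereas its title and time label give 30 h. Groups were taken from the titles, and every knockdown 30 h value rests on that array. The series text states pools of 4 animals, so each array is 1 pooled sample and no value below carries an error. No p-value was computed, and a difference is one between single arrays.

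TGF-beta and activins are secreted dimers that restrain hepatocyte division, and in the regenerating liver they are regarded as brakes on growth. A ligand binds a type II receptor, which activates a type I receptor kinase. The type I receptor phosphorylates Smad2 and Smad3, and these enter the nucleus with Smad4. Smad6 and Smad7 are inhibitory Smads that block the receptors' signal, and follistatin, the product of Fst, binds activin and keeps it from its receptor.

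The sequences in front of 3 of these genes are given here. Inhbe had the largest difference between 30 h and 0 h among the 10, Tgfbr1 the largest positive one, and Smad6 is an inhibitor that was higher at 30 h together with the receptors. The Smad6 differences were 0.43 in knockdown and 0.19 in control liver, neither near 2-fold. The sequences are from RefSeq on build GRCm38.p6. Each holds 250 bases before the annotated start and 20 bases from it on, 5′ to 3′. Capitals mark 3 motifs that were searched on both strands: the Smad palindrome GTCTAGAC, the shorter Smad motif CAGAC, and TGATGCAA, a composite site of the kind that the stress factor ATF4 binds.
Inhbe, chr10:127351829-127352098, minus strand: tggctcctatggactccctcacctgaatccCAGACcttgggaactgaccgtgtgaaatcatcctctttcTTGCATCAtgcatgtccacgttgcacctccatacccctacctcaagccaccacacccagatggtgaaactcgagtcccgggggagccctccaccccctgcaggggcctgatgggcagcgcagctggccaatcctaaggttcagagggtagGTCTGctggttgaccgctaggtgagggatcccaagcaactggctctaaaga
Smad6, chr9:64022040-64022309, minus strand: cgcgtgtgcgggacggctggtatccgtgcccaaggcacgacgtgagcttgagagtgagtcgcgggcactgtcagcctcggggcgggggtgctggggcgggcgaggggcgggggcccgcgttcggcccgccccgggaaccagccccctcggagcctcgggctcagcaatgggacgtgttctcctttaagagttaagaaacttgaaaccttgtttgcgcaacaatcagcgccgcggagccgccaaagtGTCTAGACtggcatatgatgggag
Tgfbr1, chr4:47352972-47353241, plus strand: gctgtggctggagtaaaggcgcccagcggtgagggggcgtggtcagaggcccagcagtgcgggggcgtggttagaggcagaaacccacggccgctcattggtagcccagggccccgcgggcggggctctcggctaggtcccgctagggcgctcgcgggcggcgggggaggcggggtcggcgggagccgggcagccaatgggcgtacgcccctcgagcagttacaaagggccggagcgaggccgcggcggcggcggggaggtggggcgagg

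The Smad6 window held the palindrome, which begins 4 bases before the annotated start and runs past it; 60 of 32851 windows of the same length (0.183%) hold it. The Inhbe window held TGATGCAA, on the opposite strand at 181 bases before the start, a motif found in 280 windows (0.852%). Inhbe also had 2 matches to CAGAC, at 220 and 31 bases before the start, but that motif is in 45.4% of all windows. The Tgfbr1 window printed here held none of the 3 motifs, while a second Tgfbr1 window in the table held CAGAC at 203 bases before its start. The printed one was rich in G and C, at 75.6% against a median of 52.6% over all windows, with 32 CG pairs. A match is a run of letters and not a shown binding site. Of the 10 genes, 7 had a window that was searched, and Tgfb3, Smad7 and Fst did not. For the 10 genes, windows on the chromosome of Smad7 were left out before the search.

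The values are log2 expression from the authors' RMA, so a difference of 1 is 2-fold. The lowest of the values for 22206 probe sets was 0.94 and the highest 12.9. Any 2 arrays had a Pearson r of at least 0.953 over the probe sets, which are not independent replicates. Mcu read 2.63 at 30 h and 2.83 at 0 h in knockdown liver, against 4.30 and 4.77 in control liver, which is the direction of the titles. A gene counts as bright here when its mean over the 4 arrays reaches 3.83, the median over all named genes. By that measure Tgfb1, Tgfbr1, Tgfbr2, Smad6, Inhbe and Fst were bright, and Tgfb2, Tgfb3, Smad7 and Inhba were dim.

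At 30 h, Tgfb1 and both receptor genes were higher than at 0 h in knockdown and in control liver. Of the activin genes among the 10, Inhba and Inhbe were lower in both, Inhba by only 0.14 and 0.12. Inhbb, an activin subunit gene outside the 10, was higher in both and is given below. Smad6 and Tgfb3 were also higher in both genotypes. Tgfb2, Smad7 and Fst went opposite ways in the 2 genotypes. In knockdown liver only Inhbe was at least 2-fold apart (1 of 10 genes, lower), where 4.73% of all named genes were at least 2-fold apart either way and 2.01% were lower. In control liver 0 of 10 genes were, where 6.41% of all named genes were. The members' median difference was 0.42 in knockdown liver and 0.19 in control liver, beside medians of 0.01 and -0.01 over all named genes. In all, 5 of 10 members were higher at 30 h in both genotypes and 2 were lower in both, beside 26.9% and 26.6% of all named genes.

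**Figure D1:**
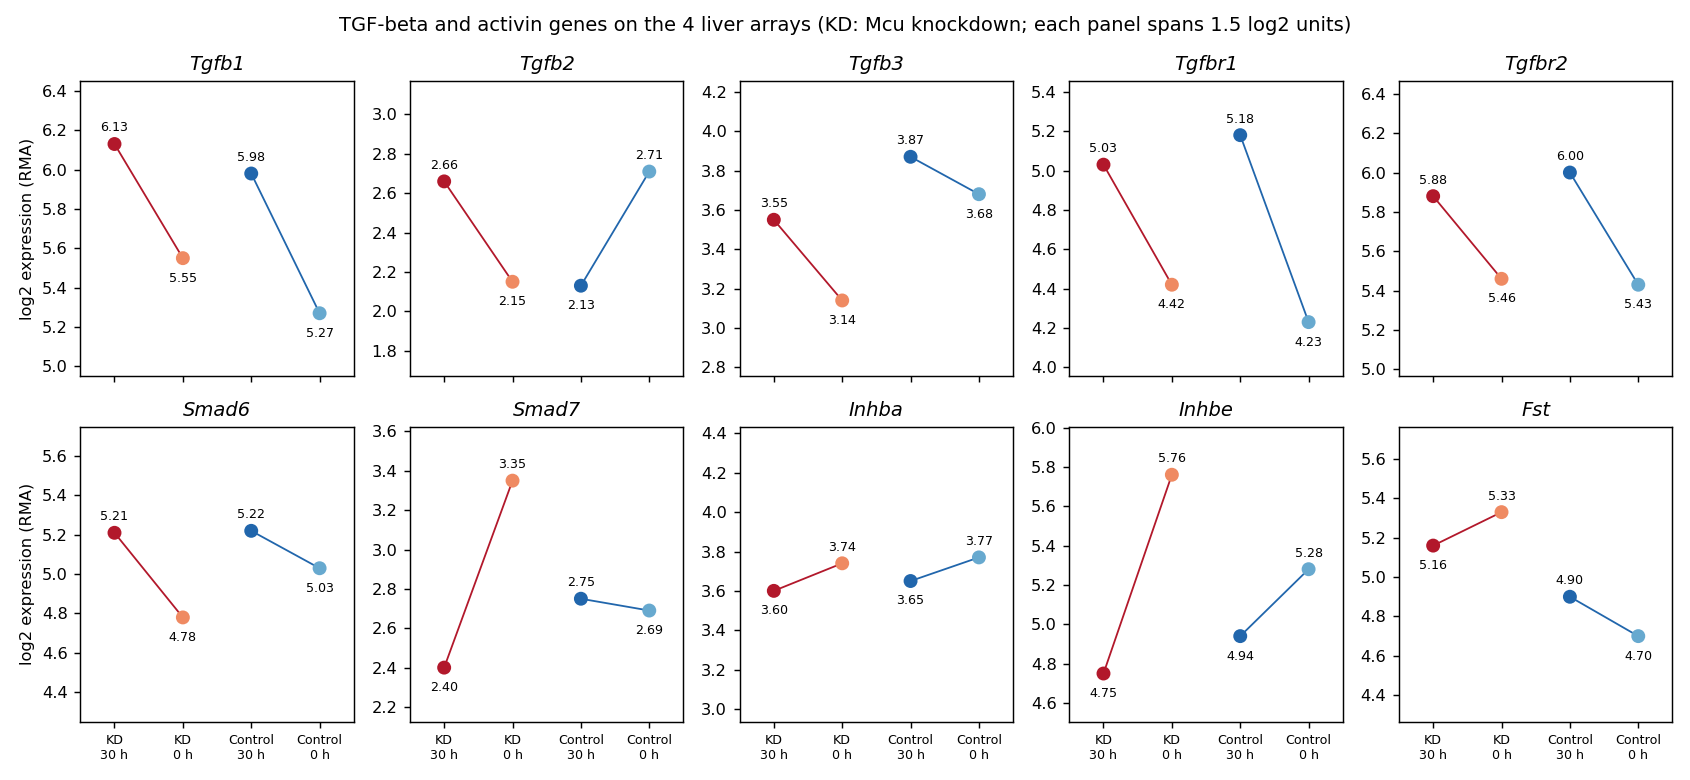
Log2 expression (vertical axis, RMA) of the 10 genes on the knockdown 30 h, knockdown 0 h, control 30 h and control 0 h arrays, 1 point per array, with lines joining the arrays of a genotype. Tgfb1, Tgfbr1 and Tgfbr2 stand higher at 30 h than at 0 h in both genotypes, and Inhbe ranges from 4.75 to 5.76.

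Among the ligands, Tgfb1, which encodes the form of TGF-beta most studied as a growth inhibitor of liver and which is made mainly by non-hepatocyte cells, read 6.13 at 30 h and 5.55 at 0 h in knockdown liver. In control liver it read 5.98 at 30 h and 5.27 at 0 h. Both 30 h arrays were above both 0 h arrays, and each knockdown array was above the control array of its time. The share of all genes whose arrays separate in such a way was not computed, here or for the genes below. Inhba, with a range of only 0.17, separated by time too. The 30 h minus 0 h difference was 0.58 (1.49-fold) in knockdown and 0.71 (1.64-fold) in control liver. Of the 2357 other genes whose mean lay within 0.5 of that of Tgfb1, 21.6% differed at least that much either way in knockdown and 15.3% in control liver. Such shares are given below as the share of genes of like mean.

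Tgfb2, a second TGF-beta ligand, read 2.66 at 30 h and 2.15 at 0 h in knockdown liver. In control liver it read 2.13 at 30 h and 2.71 at 0 h, so the order of the times was turned round between the genotypes. The differences were 0.51 and -0.58, and 25.0% and 21.5% of genes of like mean were as far apart. The gene is dim, at percentiles 12.9 to 25.7 of its arrays. Tgfb3, the third ligand, read 3.55 at 30 h and 3.14 at 0 h in knockdown, against 3.87 and 3.68 in control liver. It was lower in knockdown liver at both times, by 0.32 at 30 h and 0.54 at 0 h.

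Both receptor genes were higher at 30 h in both genotypes. Tgfbr1 encodes the type I receptor kinase, and read 5.03 at 30 h and 4.42 at 0 h in knockdown liver and 5.18 at 30 h and 4.23 at 0 h in control liver. Both 30 h values lay above both 0 h values. The difference was 0.61 (1.53-fold) in knockdown and 0.95 (1.93-fold) in control liver. The control value stood at percentile 95.3 of all named genes. Of genes of like mean, 19.9% in knockdown and 8.74% in control liver were as far apart. Tgfbr2 encodes the type II receptor that binds the ligand first, and read 5.88 at 30 h and 5.46 at 0 h in knockdown and 6.0 at 30 h and 5.43 at 0 h in control liver. Its differences were 0.42 (1.34-fold) and 0.57 (1.48-fold), sizes reached by 36.5% and 24.1% of genes of like mean.

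The inhibitory Smads did not move alike. Smad6, which acts mainly on signals of bone morphogenetic proteins (BMPs), read 5.21 at 30 h and 4.78 at 0 h in knockdown liver and 5.22 at 30 h and 5.03 at 0 h in control liver. The 30 h arrays of the genotypes differed by 0.01, and the difference between times was 0.43 in knockdown and 0.19 in control liver. This is the gene with the Smad palindrome at its start. Smad7, the inhibitor of TGF-beta and activin receptors and itself a target of the pathway, read 2.40 at 30 h and 3.35 at 0 h in knockdown liver. In control liver it read 2.75 at 30 h and 2.69 at 0 h. The knockdown 0 h array stood above the other 3. The difference between times was -0.95 in knockdown liver (1.93-fold lower), as far as 5.38% of genes of like mean, and 0.06 in control liver. Smad7 is dim, at percentiles 17.3 to 40.3 of its arrays.

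Of the activin genes, Inhba, which encodes the subunit of activin A, hardly differed between arrays: 3.60 at 30 h and 3.74 at 0 h in knockdown, and 3.65 at 30 h and 3.77 at 0 h in control liver. Its range over the 4 arrays was 0.17, the smallest of the 10 genes. The Inhba difference between times was -0.14 in knockdown and -0.12 in control liver, as far as 77.3% and 82.0% of genes of like mean. Inhbe, which encodes the activin E subunit and is made by hepatocytes, read 4.75 at 30 h and 5.76 at 0 h in knockdown liver and 4.94 at 30 h and 5.28 at 0 h in control liver. Both 0 h values lay above both 30 h values. The difference was -1.01 in knockdown liver (2.01-fold lower), at percentile 1.89 of all named genes and as far as 4.44% of genes of like mean. It was -0.34 in control liver (1.27-fold lower), as far as 50.4%. After cyclic loess scaling the knockdown difference of Inhbe was -0.95, short of 2-fold, and that of Smad7 was -1.02. Smad7 thus reached 2-fold under all 3 other scalings, median centring and quantile scaling included. Fst, the activin antagonist, read 5.16 at 30 h and 5.33 at 0 h in knockdown liver, against 4.90 and 4.70 in control liver, so both knockdown arrays lay above both control arrays.

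**Figure D2:**
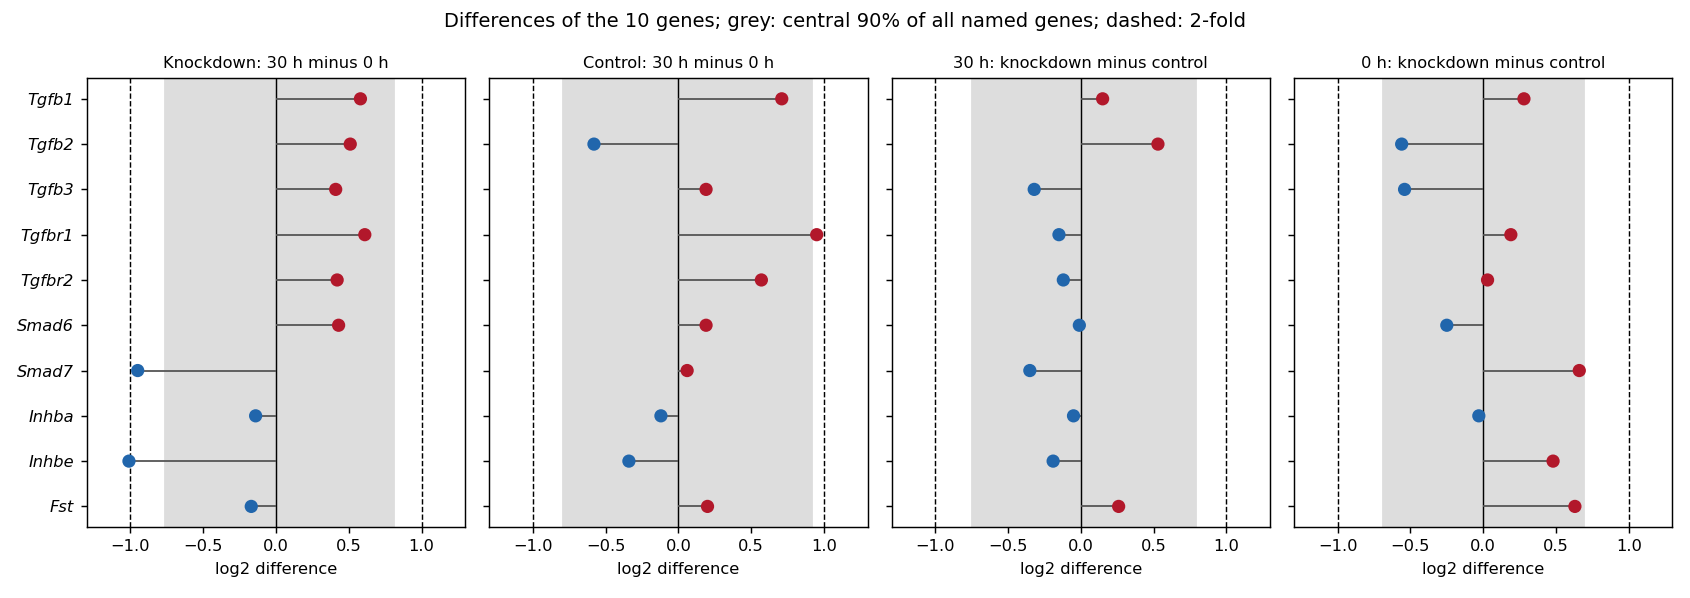
Log2 differences (horizontal axis) of the 10 genes in 4 comparisons, with the central 90% of all named genes in grey and 2-fold dashed. In knockdown liver Inhbe reaches -1.01 and Smad7 -0.95, outside the grey band, and in control liver Tgfbr1 reaches 0.95, just above it.

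Between genotypes, none of the 10 genes differed by 2-fold at either time. At 0 h, where 2.7% of all named genes were at least 2-fold apart, the furthest were Smad7 (0.66, 1.58-fold higher in knockdown), Fst (0.63, 1.55-fold higher), Tgfb2 (-0.56), Tgfb3 (-0.54) and Inhbe (0.48). Sizes like those of Fst and Smad7 were reached by 11.6% and 16.2% of genes of like mean. The members' median was 0.11, beside 0.01 over all named genes. Tgfbr2 differed by 0.03 at 0 h, which became -0.03 after cyclic loess.

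At 30 h, 3.93% of all named genes were at least 2-fold apart between knockdown and control liver, 403 of them higher and 363 lower. That split was 272 higher and 545 lower after median centring and 296 higher and 418 lower after cyclic loess. The furthest members were Tgfb2 (0.53), Smad7 (-0.35), Tgfb3 (-0.32) and Fst (0.26). Tgfb1 (0.15), Tgfbr1 (-0.15), Tgfbr2 (-0.12), Inhbe (-0.19), Inhba (-0.05) and Smad6 (-0.01) were closer. The members' median was -0.09, beside 0 over all named genes. Tgfbr2 and Smad6 turned to 0.03 and 0.07 after cyclic loess.

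The 30 h response of knockdown liver minus that of control liver uses all 4 arrays. It reached 2-fold for the dim genes Tgfb2 (1.09) and Smad7 (-1.01), 2 of 10 members, where 11.8% of all named genes did so either way. For the bright genes it was -0.67 for Inhbe, -0.37 for Fst, -0.34 for Tgfbr1, 0.24 for Smad6, -0.15 for Tgfbr2 and -0.13 for Tgfb1. The values for Tgfb1 and Tgfbr2 turned to 0.08 and 0.06 after cyclic loess. For Tgfb3 and Inhba it was 0.22 and -0.02.

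**Figure D3:**
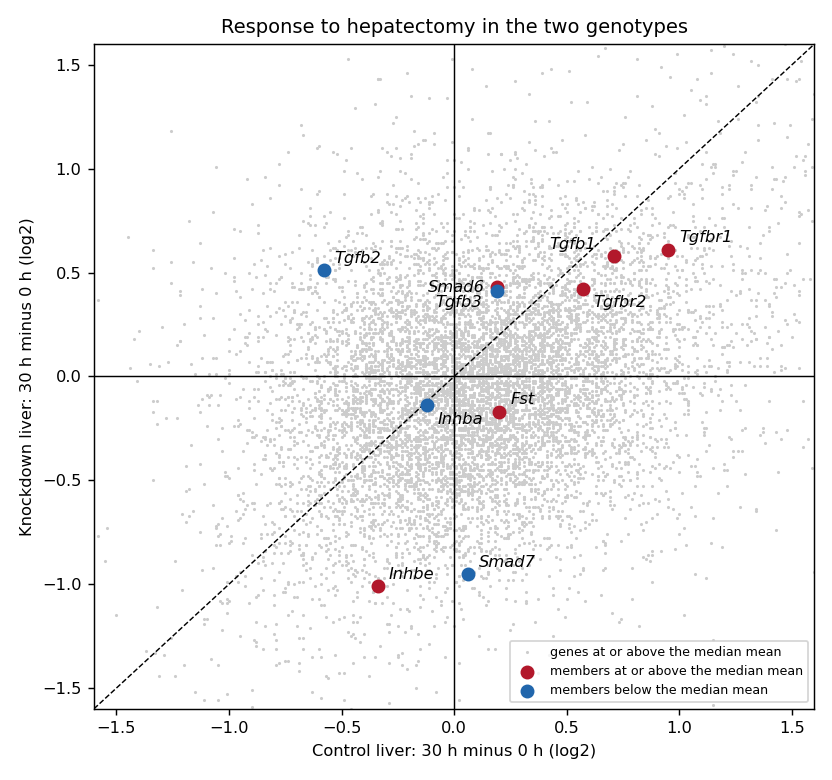
The 30 h minus 0 h log2 difference in control liver (horizontal axis) and in knockdown liver (vertical axis) for the 10 genes, over the bright genes in grey; the dashed line marks equal responses, and grey points beyond the axes are not drawn. Tgfb1, Tgfbr1 and Tgfbr2 lie to the upper right, Inhbe to the lower left at -0.34 and -1.01, and Smad7 at 0.06 and -0.95.

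Genes were also ranked by likeness to the members with the largest ranges, Inhbe (1.01) and, tied at 0.95, Tgfbr1 and Smad7. The measure is the largest deviation between the 4 values of each gene, centred on its own mean, over bright genes. Nearest to Inhbe were Nek4 (0.06), Haao, an enzyme of tryptophan breakdown (0.06), Cirbp (0.06), the peroxisomal oxidase gene Pipox (0.07) and Shf (0.08). Nearest to Tgfbr1 were the basement membrane gene Nid1 (0.03), Ndufa8 of respiratory complex I (0.04), the gluconeogenic enzyme gene Pck1 (0.05), Ddx1 (0.05) and the complement regulator C4bp (0.06). Nearest to Smad7 were Tyw3 (0.05), Zfyve21 (0.06), Fam32a (0.06), the autophagy gene Map1lc3a (0.06) and Brat1 (0.07). Within 0.15 there were 45 of 9758 genes for Inhbe, 99 of 9758 for Tgfbr1 and 60 of 9759 for Smad7.

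The further genes of the pathway were read from lists. Among the other ligands, 0 of 7 genes were at least 2-fold apart between times in either genotype. Of all named genes, 4.73% were in knockdown and 6.41% in control liver, so a count of 0 among 7 says little. The brightest was Inhbc, which encodes the activin C subunit, is made by hepatocytes and lies next to Inhbe in the RefSeq gene order. Inhbc read 6.11 at 30 h and 6.94 at 0 h in knockdown liver and 7.13 at 30 h and 6.96 at 0 h in control liver. The knockdown 30 h array was the low one, 1.02 below control liver at 30 h. Its response was -0.83 in knockdown and 0.17 in control liver, where quantile scaling gave -0.06. Like that of Inhbe, the Inhbc level was lower at 30 h than at 0 h in knockdown liver. The bright activin subunit gene Inhbb, named after its values were seen, was higher at 30 h in both genotypes. It read 5.37 at 30 h and 5.05 at 0 h in knockdown and 5.05 at 30 h and 4.61 at 0 h in control liver. The Inhbb responses were 0.32 and 0.44.

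The Smads that carry the signal, with the anchor genes Zfyve9 and Zfyve16, were lower at 30 h in knockdown liver in 7 of 8 genes. Their median was -0.49 and none was at least 2-fold apart, beside 4.73% of all named genes. In control liver 6 of 8 were higher, with a median of 0.08, but 4 of 8 after quantile or cyclic loess scaling. There 1 of 8, Smad2, was at least 2-fold apart, beside 6.41% of all named genes. Smad2, which relays TGF-beta and activin signals, read 4.44 at 30 h and 4.86 at 0 h in knockdown liver and 5.34 at 30 h and 4.14 at 0 h in control liver. Its response was -0.42 in knockdown and 1.20 in control liver. The common partner Smad4 read 5.94 and 6.57 in knockdown and 6.48 and 6.42 in control liver at 30 h and 0 h, and its small control difference changed sign under quantile and cyclic loess scaling. At 0 h all 8 genes were higher in knockdown liver (7 of 8 after median centring), with a median of 0.27. All named genes had medians of 0.01 in knockdown and -0.01 in control liver for the response, and 0.01 for the genotypes at 0 h. Of the 8 genes, 6 are bright. At 30 h, 48.8% of all named genes and 53.1% of bright genes were lower in knockdown liver. In control liver 49.0% and 58.2% were higher at 30 h. At 0 h, 51.0% and 56.7% were higher in knockdown than in control liver.

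Among the other receptors and co-receptors, 0 of 13 genes were at least 2-fold apart between times in knockdown liver and 1 of 13, Acvrl1, in control liver, beside 4.73% and 6.41% of all named genes. Acvrl1, an endothelial type I receptor for BMP9 and BMP10, read 4.20 at 30 h and 4.40 at 0 h in knockdown and 3.52 at 30 h and 4.80 at 0 h in control liver (-1.28). Its co-receptor gene Eng read 6.94 and 6.95 in knockdown and 6.92 and 6.27 in control liver at 30 h and 0 h. Bmpr1a, a BMP type I receptor, was 1.18 lower in knockdown than in control liver at 0 h (3.19 against 4.37). In the latency and activation list, 0 of 13 genes were 2-fold apart between times in either genotype. Its Mmp14, a membrane protease that can release latent TGF-beta, had responses of -0.31 in knockdown and 0.90 in control liver, and Ltbp3, a latency binding protein, of -0.97 and -0.18. The brightest gene of that list, Plg, which encodes plasminogen, differed by -0.01 in knockdown and 0.12 in control liver, and the control value changed sign under quantile and cyclic loess scaling.

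Negative regulators showed 0 of 15 genes at least 2-fold apart between times in either genotype. Of all named genes, 4.73% in knockdown and 6.41% in control liver were, so few or none would be looked for among 15. The median responses were -0.07 in knockdown and 0.24 in control liver. Of these 15, 6 were higher in knockdown and 12 in control liver (7 and 10 after cyclic loess). All 15 are bright, and of all bright genes 46.2% were higher in knockdown and 58.2% in control liver. Skil, a co-repressor of Smads that the pathway itself induces, read 4.20 at 30 h and 3.68 at 0 h in knockdown and 4.66 at 30 h and 3.73 at 0 h in control liver. Dcn, which encodes the TGF-beta binding proteoglycan decorin, was the brightest, between 9.30 and 9.56 on the 4 arrays.

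Known TGF-beta target genes were the longest list, with 20 genes measured. At 30 h, 4 of 20 were at least 2-fold higher than at 0 h in knockdown liver, where 2.72% of all named genes were. In control liver 7 of 20 were, where 4.19% of all named genes were, and 0 of 20 were at least 2-fold lower in either genotype, beside 2.01% and 2.22% of all named genes. After each of the 3 other scalings the counts were 3 and 7. Of the 20 genes, 16 are bright, and 2.64% of all bright genes in knockdown and 5.98% in control liver were at least 2-fold higher. Among the 7 in control liver, Timp1 (1.33) is dim, and it was named after its values were seen. The list was chosen with earlier results of these data known. The list's medians were 0.44 in knockdown and 0.70 in control liver. The transglutaminase gene Tgm2 had responses of 1.49 in knockdown and 2.22 in control liver, the contractile protein gene Tagln 1.14 and 1.89, and the collagen gene Col1a2 1.21 and 1.49. Fibronectin, encoded by Fn1, had 1.00 and 0.69. Col3a1 (0.47 and 1.43), Acta2 (0.14 and 1.20) and the cell cycle inhibitor Cdkn1a (0.70 and 2.62) had smaller responses in knockdown liver. For Cdkn1a the values were 6.59 at 30 h and 5.89 at 0 h in knockdown and 6.67 at 30 h and 4.05 at 0 h in control liver, so the control 0 h array was the low one. These genes answer to other signals too, and Skil, Pmepa1 and Tgif1 stand in both this list and that of negative regulators.

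**Figure D4:**
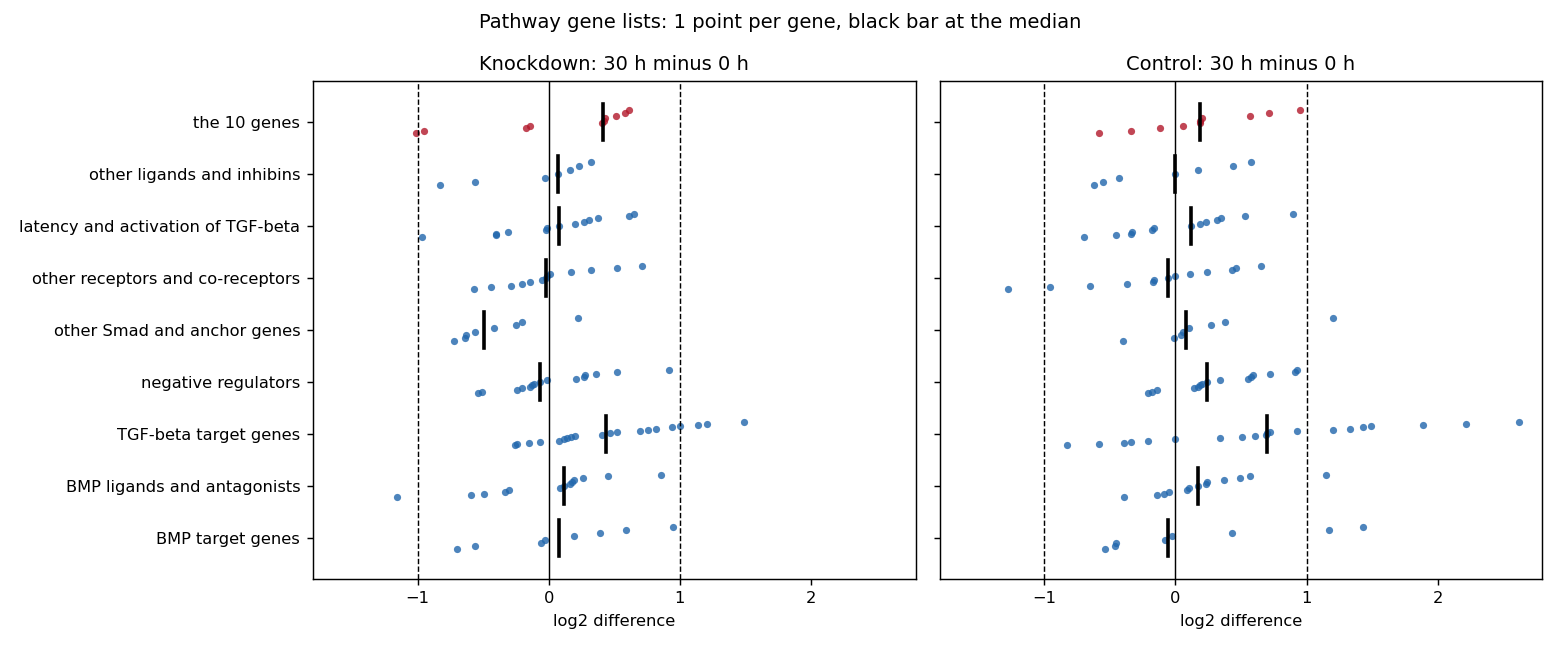
The 30 h minus 0 h log2 difference (horizontal axis) in knockdown and control liver for the genes of each pathway list, 1 point per gene, with a bar at the list's median and 2-fold dashed. The target genes extend furthest to the right, to 1.49 in knockdown and 2.62 in control liver, and the other Smad and anchor genes have a median of -0.49 in knockdown liver.

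On the BMP branch, the target gene Id1 read 5.77 at 30 h and 4.82 at 0 h in knockdown and 5.80 at 30 h and 4.37 at 0 h in control liver, responses of 0.95 and 1.43. The transcription factor gene Msx1 went opposite ways, by -0.56 in knockdown and 1.17 in control liver. Hamp, which encodes the iron hormone hepcidin and is the brightest BMP target here, lay between 10.98 and 11.18 on the 4 arrays. Of the 8 BMP targets, 0 in knockdown liver and 2 in control liver were at least 2-fold higher at 30 h, beside 2.72% and 4.19% of all named genes, with medians of 0.08 and -0.06. After quantile scaling the knockdown count was 1 and its median -0.03. Among 13 BMP ligands and antagonists, 1 was at least 2-fold apart in knockdown liver and 1 in control liver, near the 4.73% and 6.41% of all named genes. The knockdown one was the dim Bmp4, which read 2.49 at 30 h and 3.65 at 0 h in knockdown and 3.51 at 30 h and 3.90 at 0 h in control liver. The control one was the dim Bmp2, named after its values were seen, which read 2.99 at 30 h and 3.48 at 0 h in knockdown and 4.19 at 30 h and 3.04 at 0 h in control liver. The brightest, the BMP co-receptor gene Hjv, had responses of -0.30 and 0.24.

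Whole liver holds several cell types, and fewer cells of a type cannot be told apart from less RNA per cell. Hepatocyte markers averaged 11.3 on every array, and the defining marker Alb was the brightest of them. Kupffer cell markers (10 genes) averaged 5.43 at 30 h and 5.45 at 0 h in knockdown and 5.75 at 30 h and 5.02 at 0 h in control liver. In control liver 9 of 10 were higher at 30 h, beside 49.0% of all named genes and 58.2% of bright genes. In knockdown liver 6 of 10 were lower, beside 48.8% and 53.1%. Sinusoidal endothelial markers (10 genes) averaged 4.61 and 5.26 in knockdown and 4.78 and 4.85 in control liver at 30 h and 0 h, with 9 of 10 lower at 30 h in knockdown liver. Stellate cell markers (12 genes, Acta2 and Dcn among them) averaged 5.17 and 5.45 in knockdown and 5.24 and 5.06 in control liver, with 9 of 12 lower at 30 h in knockdown liver. Beside these endothelial and stellate counts, 48.8% of all named genes and 53.1% of bright genes were lower at 30 h in knockdown liver. At 0 h, 9 of 10 Kupffer, 9 of 10 endothelial and 10 of 12 stellate markers were higher in knockdown than in control liver, beside 51.0% of all named genes and 56.7% of bright genes. Markers of cholangiocytes, neutrophils and lymphocytes averaged between 2.82 and 3.34 on the arrays, and platelet markers between 4.21 and 4.65. The part of these cells in the differences above was not tested.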

How the data were processed

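Each deposited value is the log2 level of a probe set. Per the submitters' processing notes, it comes from RMA as run in Expression Console (Affymetrix); no version or parameter is stated. RMA brings the arrays to one distribution of probe intensities, so it hides any shift common to every gene. Of 22206 probe sets, 19572 carried 1 symbol in the platform annotation, updated through Entrez IDs (GRCm38.p6, names and gene order only); 2634 were unnamed. A gene took its brightest probe set. Groups follow the array titles, and p-values were not computed because each group has 1 array. Differences were counted at 2-fold or more. The members and gene lists were chosen with earlier results of these data known. Besides all 10 members, the text names list genes that were bright and at least 2-fold apart in a comparison, and the brightest and most variable gene of each list. Values of Inhbb, Timp1 and Bmp2 are given too, and these genes were named after their values were seen. Some listed genes were not analysed here. Alternatives were median centring, quantile and cyclic loess scaling (limma 3.58.1 in R 4.3.3), the mean of probe sets, bright members only, and thresholds of 1.5-fold and 3-fold. The number of arrays limits the precision. Python 3.11.15 with pandas 2.3.3 was used, and the counting was tested on simulated data.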

Additional observations from a re-analysis of the deposited data

Results flagged for a closer look

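With 1 array per group, no difference below was tested. In 3 of the 10 genes the 30 h response had opposite signs in the genotypes, as it had in 44.6% of all named genes. For Tgfb2 the 30 h response was 0.51 in knockdown and -0.58 in control liver, a difference of 1.09. For Smad7 it was -0.95 and 0.06, a difference of -1.01, and for Fst -0.17 and 0.20, a difference of -0.37. For 3 further genes, Inhbe, Tgfbr1 and Tgfbr2, the responses had the same sign in both genotypes, and the knockdown minus control difference changed sign between 30 h and 0 h. It was -0.19 at 30 h and 0.48 at 0 h for Inhbe (-0.67 between them), -0.15 and 0.19 for Tgfbr1 (-0.34), and -0.12 and 0.03 for Tgfbr2 (-0.15). Each of these Tgfbr2 values turned to the opposite sign under quantile and cyclic loess scaling. The share of all named genes with such a change between times was not computed.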

How the results depend on the processing

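In the 30 h responses, the sign of each of the 10 genes held under all 3 other scalings in both genotypes. Between genotypes and for the difference of responses, 10 values changed sign (of 150 over all 5 comparisons), none of them above 0.15 in size as deposited. The mean of probe sets changed nothing, since every member has 1 probe set. The count of members at least 2-fold apart in the knockdown response, 1 as reported, was 2 after median centring and 2 after quantile scaling, where Smad7 also reached 2-fold; it was 1 after cyclic loess, with Smad7 (-1.02) in place of Inhbe (-0.95). It was 3 at 1.5-fold and 0 at 3-fold. In the control response it was 2 at 1.5-fold, and between genotypes at 0 h 2 at 1.5-fold. The shares of all named genes at 1.5-fold and 3-fold were not computed, so the counts at these thresholds show only how the rule changes them. For the difference of responses, 2 as reported, it was 1 after quantile and 1 after cyclic loess scaling, where Tgfb2 was at 0.90, 0 at 3-fold and 0 among bright members. The control responses of bright genes lie 0.13 lower in median after quantile scaling. No paired analysis was possible because each group has 1 array. Leaving out a replicate and another background correction were not run, for want of replicates and of scanner files used here.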
